A study of Mus musculus with 4 samples.

Results

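Induction of a short hairpin RNA (shRNA) against luciferase by doxycycline (dox) was examined in mouse embryonic fibroblasts (MEFs) that carry ROSA-rtTA, by small RNA sequencing. The comparison uses 2 of the 4 libraries of the series, chosen by title: the library of shLuc.1309;ROSA-rtTA cells grown with dox and the library of the same genotype grown without it. The other pair, shLuc.1309 cells that lack rtTA, again with and without dox, is given beside it. Every group is 1 library, so no value has a replicate check, and each difference is one between libraries rather than between conditions. All 4 groups carry the shRNA against luciferase, a gene that mice lack, so no group is free of the construct. MEFs are primary cells from mouse embryos. The number of embryos or lines behind a library, the dox dose and the time of exposure are unstated.

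rtTA, the reverse tetracycline transactivator, binds tetracycline-responsive promoters when dox is present, and ROSA refers to the broadly active Rosa26 locus. MicroRNAs and shRNAs embedded in a microRNA backbone, as in the miR-30 backbone used in this mouse system, share one route: Drosha trims the hairpin in the nucleus, exportin-5 carries it to the cytoplasm, Dicer removes the loop, and Argonaute keeps one arm as the guide. Bases 2 to 8 of the guide, its seed, pair with target transcripts. An induced shRNA uses the same enzymes as the cell's own microRNAs. The comparison addresses whether endogenous microRNAs differ relative to each other once the shRNA is expressed.

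The 2 rtTA libraries held 8780954 counts without dox and 7690978 with dox, and the 2 libraries without rtTA held 6383594 and 6545093. Levels are given as CPM, counts per 1000000 endogenous microRNA counts of the library, with the shRNA left out of the total. The files name 508 microRNAs, of which 497 were listed in at least one rtTA library, 456 in both and 11 in neither. A floor on the mean level over the 4 libraries (3.14 CPM, equal to 20 counts in the shallowest library) kept 372 microRNAs with 99.99% of the endogenous counts. The 136 below it had at most 76 counts in a library and were not compared. A log2 ratio carries an exact conditional binomial 95% interval, which covers counting error only, since PCR reads without molecular identifiers are not independent molecules. To be counted as higher or lower, a microRNA needed levels at least 2-fold apart and an interval off equality.

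The 3 most abundant microRNAs of the rtTA libraries, miR-21, miR-22 and miR-143, belong to the fibroblast or mesenchymal list. Other members stood far lower, such as miR-214 at 3760 and 3905 CPM and miR-145 at 2439 and 1791 CPM (-dox, then +dox). Summed levels of the lists for other cell types were low. Without and with dox, in that order, the muscle list summed to 383 and 593 CPM, the neuronal list to 948 and 995, the endothelial list (miR-126) to 134 and 126, the blood list to 82.4 and 52.6, and the epithelial list to 20.6 and 11.3. The pluripotent list summed to 0.798 and 1.47 CPM, with 8 of its 12 hairpins at 0 in both libraries, and liver-specific miR-122 stood at 3.99 and 3.73 CPM. The part of other cells in the results below was not tested, and fewer cells of a type and less RNA per cell cannot be told apart in these bulk libraries.

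The shRNA is counted in one row of the files, whose reference sequence of 324 bases holds a perfect inverted repeat. Its arms are shown because they mark the hairpin stem in the induced row, found from the sequence alone. The first spans bases 130 to 152 of the row and the second bases 168 to 190, with 15 bases of loop between them. The ends of the mature product are not given. The row gives one count, so guide and passenger arm cannot be told apart.
shRNA stem, first arm: ccgcctgaagtctctgattaata
shRNA stem, second arm: tattaatcagagacttcaggcgg

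The shRNA took 4630 counts without rtTA and without dox, 5063 without rtTA and with dox, 6898 with rtTA alone and 183085 with rtTA and dox. The first 3 libraries lay close together and the induced library stood alone. Its level was 726, 774, 786 and 24386 CPM, a ratio of 31.0 (30.3 to 31.8) with dox in rtTA cells and of 1.07 (1.02 to 1.11) with dox in cells without rtTA. In the induced library it ranked 8th of all listed RNAs, between let-7c at 24693 CPM and let-7i at 23936 CPM, and ahead of miR-31, miR-130a and miR-125b-5p. Set against the summed guides of the endogenous miR-30 family, whose backbone the shRNA borrows, it amounted to 6.98%, 6.94% and 6.80% in the 3 uninduced libraries and to 229% in the induced one. The miR-30 guides themselves summed to 11569 CPM without dox and 10653 CPM with dox in rtTA cells.

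**Figure D1:**
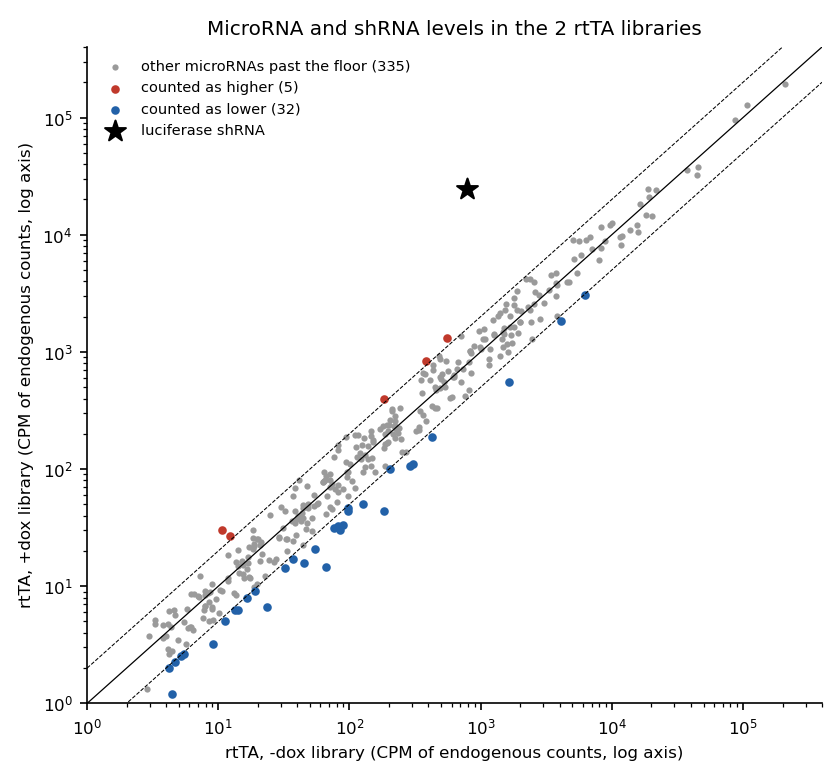
Level of each of the 372 microRNAs past the floor and of the shRNA in the rtTA library with dox (vertical, CPM, log axis) against the rtTA library without dox (horizontal, CPM, log axis). The solid line is equality and the dashed lines are 2-fold apart. Most points lie between the dashed lines, 5 microRNAs are marked as higher and 32 as lower, and the shRNA lies at 786 and 24386 CPM, far from the line.

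Endogenous microRNAs lay much closer to equality than the shRNA. Since their levels are scaled to each library's endogenous total, a change shared by all of them would not show. The median log2 ratio of the 372 was -0.06, the 5th and 95th percentiles were -1.15 and 0.81, and 260 lay within 1.5-fold. The pair without rtTA was somewhat tighter, with percentiles of -0.66 and 0.72 and 309 within 1.5-fold. With rtTA, 37 microRNAs (9.95% of those compared) were counted as apart, 5 as higher (1.34%) and 32 as lower (8.60%). In the pair without rtTA the same rule counted 6 (1.61%), 3 in each direction (0.806%). None of the 37 was among these in the same direction, and 2 were in the opposite one. With so few counted, this overlap says little about the 37. The counts of 5 and 32 became 2 and 7 when a linear trend of the log2 ratio on the percentage of G bases in the mature sequence was subtracted, a property described further on.

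The microRNAs counted as apart made up little of the pool. The 5 higher ones went from 0.114% to 0.261% of endogenous counts and the 32 lower ones from 1.44% to 0.640%. The 19 microRNAs above 10000 CPM held none of them, with log2 ratios from -0.59 to 0.38, and the 74 between 1000 and 10000 CPM held 3 lower and 0 higher. Among the 109 between 100 and 1000 CPM, 3 were higher and 6 lower. Of the 119 between 10 and 100 CPM, 2 were higher and 16 lower, and of the 51 below 10 CPM, 7 were lower and 0 higher.

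The sequences of the 4 located higher microRNAs are shown, with bases 2 to 8 in capitals as in every microRNA sequence here, because they share no seed and hold 29.2% to 45.5% G, above the median of 23.8% of all 372. The letters are those of the deposited files, and positions are those of RefSeq on GRCm38.p6.
miR-323-5p: aGGTGGTCcgtggcgcgttcgc
miR-351: tCCCTGAGgagccctttgagcctg
miR-672: tGAGGTTGgtgtactgtgtgtga
miR-370: gCCTGCTGgggtggaacctggt

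miR-323-5p, at chr12:109712523-109712544 on the plus strand in the imprinted Dlk1-Dio3 region, stood at 20.5 and 13.5 CPM in the libraries without rtTA (-dox, then +dox) and at 10.7 and 30.0 CPM in those with rtTA. The induced library was the highest of the 4, with 225 counts against 94 in its uninduced partner, and the log2 ratio was 1.48 (1.13 to 1.85). Without rtTA the ratio pointed the other way, at -0.61.

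miR-351, at chrX:53053315-53053338 on the minus strand, belongs to the X-linked cluster that also encodes miR-322 and miR-503, and it shares its seed with miR-125. Its levels without rtTA were 792 and 779 CPM, and with rtTA 553 and 1325 CPM. Here the uninduced rtTA library was the lowest of the 4 and the induced library the highest. The log2 ratio with dox was 1.26 (1.21 to 1.31) with rtTA and -0.03 without it.

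miR-672, in an intron of Nexmif at chrX:104116228-104116250 on the minus strand, stood at 418 and 313 CPM without rtTA and at 381 and 833 CPM with it. Its log2 ratio was 1.13 (1.07 to 1.19), from 3345 and 6258 counts, and the 3 uninduced libraries lay close together. miR-370, in an intron of the noncoding Rian gene at chr12:109618305-109618326 on the plus strand, behaved much alike. It stood at 235 and 184 CPM without rtTA and at 183 and 393 CPM with it, a log2 ratio of 1.10 (1.01 to 1.19). For both, dox without rtTA gave a lower level, at log2 ratios of -0.42 and -0.35.

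miR-30b*, the passenger arm of miR-30b, is rare, as miR-323-5p is. It had 46 and 68 counts without rtTA and 107 and 202 with it, and its log2 ratio of 1.14 (0.80 to 1.49) had a wide interval. The 3 nearest microRNAs inside the 2-fold limit were miR-30b*, miR-672 and miR-370, and the 3 nearest outside it were miR-485 at 0.98, miR-140 at 0.97 and miR-671-5p at 0.96.

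Among the lower microRNAs, the lowest ratios belonged to a group of AC-rich and AU-rich products of the Sfmbt2 intron cluster, a large rodent array of near-identical hairpins. They are shown because 3 of them share the seed ATACATA and because they hold between 0% and 9.52% G. Near-identical copies leave their counts uncertain, since how reads that fit several microRNAs were assigned is unstated.
miR-466e-3p: tATACATAcacgcacacataaga
miR-466d-3p: tATACATAcacgcacacatag
miR-297c*: tATACATAcacacatacccata
miR-669f: cATATACAtacacacacacgtat

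miR-466e-3p had 73.4 and 62.8 CPM without rtTA, 65.8 with rtTA alone and 14.7 with rtTA and dox, a log2 ratio of -2.17 (-2.47 to -1.87) with dox. miR-669f followed the same order of libraries, at 190, 177, 184 and 43.8 CPM, with a log2 ratio of -2.07 (-2.25 to -1.90). miR-466d-3p stood at 24.8, 20.8, 23.6 and 6.66 CPM, with a log2 ratio of -1.82 (-2.30 to -1.37). For these 3 the uninduced libraries were nearly level and the induced one was 22.3%, 23.8% and 28.2% of its uninduced partner. The fourth, miR-297c*, rests on few reads: 32 and 80 counts without rtTA and 39 and 9 with it, a log2 ratio of -1.89 (-3.12 to -0.82). Of the 22 Sfmbt2 cluster microRNAs past the floor, 4 were counted as lower and 0 as higher, with a median log2 ratio of -0.27.

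Next by ratio came miR-15b, a member of the miR-15/16 family, whose targets include cell cycle and anti-apoptotic genes. Both arms of its hairpin, in an intron of Smc4 on chromosome 3, were counted as lower. The guide is shown with the family members miR-16 and miR-322, which share the seed AGCAGCA.
miR-15b: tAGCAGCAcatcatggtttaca
miR-16: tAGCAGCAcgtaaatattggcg
miR-322: cAGCAGCAattcatgttttgga

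miR-15b, at chr3:69009775-69009796 on the plus strand, had 1648 and 1092 CPM without rtTA, 1650 with rtTA alone and 559 with rtTA and dox. The log2 ratio with dox was -1.56 (-1.61 to -1.51) in rtTA cells and -0.59 without rtTA, so the level was lower with dox in both pairs. Its passenger arm miR-15b*, at chr3:69009813-69009834, stood at 58.6, 90.7, 90.0 and 33.0 CPM, with log2 ratios of -1.45 (-1.66 to -1.24) with rtTA and 0.63 without it. miR-16, which is also made from this intron as well as from Dleu2 on chromosome 14, went from 11971 to 9751 CPM, a log2 ratio of -0.30. miR-322 had 1519 and 1611 CPM, a log2 ratio of 0.09. The pairs miR-322 and miR-15b (1.65 apart on the log2 scale) and miR-16 and miR-15b (1.27 apart) were the most separated of 58 same-seed pairs above 1000 CPM. Without rtTA those pairs lay 0.12 and 0.44 apart. Of the 6 members of the miR-15/miR-16/miR-195/miR-497 list past the floor, 2 were lower, 0 were higher, and the median was -0.45.

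The most abundant lower microRNAs were miR-23a and miR-23b, co-expressed with miR-27 and miR-24 in a pair of paralogous clusters. They differ by T19A, counted from the 5′ end of miR-23a, so reads could have been shared.
miR-23a: aTCACATTgccagggatttcc
miR-23b: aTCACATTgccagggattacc

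miR-23a, at chr8:84208563-84208583 on the plus strand, had 5882 and 4357 CPM without rtTA and 6248 and 3043 CPM with it, a log2 ratio of -1.04 (-1.06 to -1.02). miR-23b, at chr13:63300529-63300549 on the plus strand, had 3329, 2635, 4078 and 1850 CPM, a log2 ratio of -1.14 (-1.17 to -1.11). In both cases dox went with a lower level in each pair, at -0.43 and -0.34 without rtTA. Summed, the seed TCACATT took 10325 CPM without dox and 4893 CPM with dox in rtTA cells (log2 ratio -1.08), the lowest value among 23 seed groups above 1000 CPM. The 9 members of the miR-23/27/24 list past the floor held 2 lower, 0 higher, and had a median of -0.26. miR-24, which ends the same primary transcripts, stood at 37489 and 35576 CPM.

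Further lower microRNAs came from separate loci. They are shown as a set because their locations differ and their shortage of G is shared.
miR-674*: cACAGCTCccatctcagaacaa
miR-382*: tCATTCACggacaacacttttt
miR-374: aTATAATAcaacctgctaagtg
miR-365: tAATGCCCctaaaaatccttat
miR-350: tTCACAAAgcccatacactttc
let-7c-2*: cTATACAAtctactgtctttcc

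miR-374, in an intron of the noncoding Ftx gene at chrX:103573112-103573133, stood at 205 and 276 CPM without rtTA and at 289 and 106 CPM with it, a log2 ratio of -1.45 (-1.57 to -1.34). miR-350, in an intron of Cep170 at chr1:176772342-176772363, had 81.7, 150 and 75.6 CPM in the uninduced libraries and 31.7 CPM in the induced one. Its log2 ratio was -1.25 (-1.47 to -1.04) with rtTA and 0.88 without it. miR-365, which is clustered with miR-193, had 45.5, 88.7, 55.0 and 20.6 CPM, with log2 ratios of -1.41 (-1.69 to -1.15) and 0.96. For these 3 the induced library was the lowest of the 4, and dox without rtTA went with a higher level. let-7c-2*, the passenger arm of a let-7c hairpin, showed the same order at 58.2, 99.9, 85.1 and 30.1 CPM. miR-32, in an intron of Tmem245, had 88.9, 144, 96.9 and 43.8 CPM.

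Of the remaining lower microRNAs, miR-495, miR-382*, miR-1193, miR-337-3p, miR-299* and miR-329 lie in the Dlk1-Dio3 region and had log2 ratios from -1.51 to -1.08. miR-126-5p, the rarer arm of the endothelial miR-126 hairpin within Egfl7, had 180 and 360 counts without rtTA and 283 and 107 with it, a log2 ratio of -1.18 (-1.51 to -0.85). miR-34b-3p, from a p53-responsive cluster, had 324 and 127 counts, at -1.13 (-1.43 to -0.83). Other passenger or rarer arms among them were miR-335-3p at -1.09, let-7f* at -1.14, let-7c-1* and miR-130b* at -1.05 each, and miR-129-3p at -1.02. In 31 of the 32 lower microRNAs and in 5 of the 5 higher ones, the induced library held the most extreme level of the 4. For all 372 that number was 261. Being counted as apart rests on the same induced library, which makes an extreme level there easier to reach.

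The exception was muscle-specific miR-1. It had 51 and 50 counts without rtTA and 146 and 59 with it. At 8.0, 7.6, 17 and 7.9 CPM, the uninduced rtTA library stood apart for this microRNA, and the induced one matched the pair without rtTA. The 3 nearest lower microRNAs inside the 2-fold limit were miR-129-3p at -1.02 and miR-23a and miR-676* at -1.04 each. Just outside it were myeloid miR-223 at -0.99, miR-421 at -0.97 and miR-135a at -0.93.

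**Figure D2:**
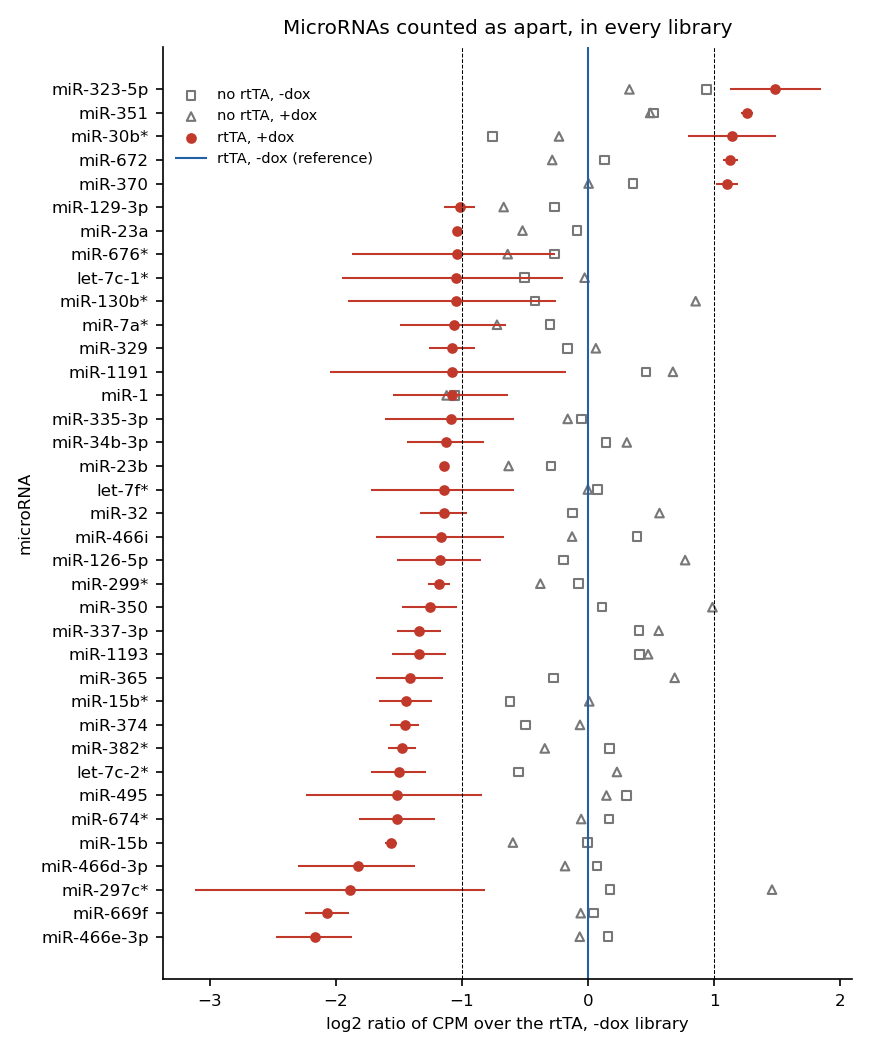
Level of each of the 37 microRNAs counted as apart, as log2 ratio of CPM over the rtTA library without dox (vertical line at 0); filled circles are the induced library with 95% counting intervals, open squares and triangles the libraries without rtTA (-dox and +dox), and dashed lines mark 2-fold. For 31 of the 32 lower and 5 of the 5 higher microRNAs the filled circle is the outermost symbol, and miR-1 is the exception. All 37 were selected by the distance of the filled circle from the line, which favours that place.

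The largest shifts in CPM came from abundant microRNAs that stayed below the 2-fold limit. miR-22 went from 107853 to 128127 CPM, a gain of 20274 and a log2 ratio of 0.25 (0.24 to 0.25). The mesenchymal microRNA miR-143 gained 8084 CPM and let-7c 5717 CPM. miR-652, in an intron of Tmem164, had 5064 and 9027 CPM, the largest ratio among the 8 leading gains at 0.83 (0.82 to 0.85). let-7b gained 3354, miR-10a 3275, miR-541 2698 and miR-379 2690 CPM.

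The leading losses were those of miR-21, a highly expressed microRNA of fibroblasts, and of miR-29a, miR-29b and let-7 members; miR-29 represses collagen genes. miR-21 went from 207301 to 193838 CPM, which was a log2 ratio of -0.10, and dox without rtTA gave -0.11. miR-29a had 44352 and 32462 CPM with rtTA, at -0.45 (-0.46 to -0.44), while dox without rtTA gave 0.27. miR-29b went from 45701 to 37980 CPM (-0.27) and the rarer miR-29c from 822 to 473 CPM (-0.80). The 6 arms of the miR-29 list past the floor all lay below 0, with a median of -0.36, 0 higher and 0 lower by the 2-fold rule. The log2 ratios of the other leading losses were -0.49 for let-7f, -0.59 for miR-199b, -0.31 for miR-125b-5p, -0.51 for let-7d and -0.35 for let-7a. In all, 90722 CPM, or 9.07% of the pool, changed places between microRNAs, against 7.02% in the pair without rtTA. Some of these directions depended on the G trend. With it subtracted, miR-143 stood at -0.01, let-7c at -0.29, let-7b at -0.37 and miR-379 at -0.07. miR-21 then stood at 0.01 and miR-29b at 0.07, and the other leading gains and losses kept their sign.

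The let-7 family, which restrains growth-promoting genes and shares the seed GAGGTAG, shows how like sequences lay apart. Its summed guides hardly differed, at 114649 CPM without dox and 111185 CPM with dox. Single members ran from -0.51 for let-7d to 0.49 for let-7b. The sequences are shown because let-7f, let-7a, let-7e, let-7c and let-7b are separated by a few base differences that change the number of G bases. Relative to let-7a and counted from its 5′ end, let-7f carries G12A, let-7e T9G, let-7c A19G, and let-7b both A17G and A19G.
let-7f: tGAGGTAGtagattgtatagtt
let-7a: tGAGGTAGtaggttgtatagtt
let-7e: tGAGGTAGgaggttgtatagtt
let-7c: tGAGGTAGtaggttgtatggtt
let-7b: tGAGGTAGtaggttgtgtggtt

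let-7f, with 1 G fewer than let-7a, had 176965 and 108102 counts in the rtTA libraries (-dox, then +dox), a log2 ratio of -0.49. let-7a had 136054 and 91571 counts, at -0.35, and let-7e 78103 and 66321 counts, at -0.01. let-7c had 166497 and 185390 counts, at 0.38, and let-7b, the G-richest of these 5, had 73178 and 87801 counts, at 0.49. Among these 5 the ratio was lowest in the G-poorest member and highest in the G-richest. In the pair without rtTA it was the other way around, with 0.32 for let-7f, -0.07 for let-7a, 0.08 for let-7e, -0.20 for let-7c and -0.41 for let-7b. let-7d, at -0.51, and let-7a have the same G content, as has let-7i, which stood at 0.15. All are near-identical, so their counts are uncertain. Of the 16 microRNAs in the let-7 and miR-98 list past the floor, 3 passenger arms were lower and 0 were higher, with a median of -0.40.

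Equal G content did not go with equal ratios in the miR-196 pair from the Hox clusters, which differ by A12C. Both are near-identical, so reads could have been shared and their counts are uncertain. miR-196a had 14992 and 10486 counts in the rtTA libraries, a log2 ratio of -0.29 (-0.33 to -0.25). miR-196b had 3774 and 5838 counts, at 0.85 (0.79 to 0.91). Both stood at -0.07 without rtTA. Their summed seed group hardly differed, at 0.02.
miR-196a: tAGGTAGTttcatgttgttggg
miR-196b: tAGGTAGTttcctgttgttggg

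Over all 372 microRNAs the log2 ratio with dox in rtTA cells moved with the number of G bases. The 28 microRNAs with 0 to 2 G had a median of -1.07 and held 18 of the 32 lower ones. The 91 with 3 or 4 G had a median of -0.45 and held 13, and the 126 with 5 or 6 G had a median of -0.09 and held 1. The 92 with 7 or 8 G had a median of 0.25 and held 2 of the 5 higher ones, and the 35 with 9 or more had a median of 0.63 and held 3. Of those 35, 33 lay above 0, against 1 of the 28 poorest in G. In the pair without rtTA the 5 medians ran from -0.22 to 0.16 and were lowest for the G-richest class.

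The gap between G and the other bases was not tied to one place. At each of 20 positions from the 5′ end, microRNAs with G there had a higher median log2 ratio than the rest, by 0.06 at position 15 to 0.34 at position 13. Without rtTA this held at 4 of 20 positions. By the last base, the 87 microRNAs ending in G had a median of 0.19, the 73 ending in A -0.19, the 75 ending in C -0.25 and the 137 ending in U -0.09. Other properties went less closely with the ratio: across the 372 microRNAs, which share both libraries, Pearson's r was -0.35 for the percentage of A, -0.24 for C, -0.13 for U, 0.07 for length and 0.19 for log2 mean CPM. The mean G content of the listed microRNA sequences, weighted by their counts, was 26.6%, 26.3% and 26.7% in the uninduced libraries and 27.6% in the induced one. It restates the shift in counts and is no separate measurement on the reads. With the relation subtracted as a linear trend, 7 of the 37 microRNAs were still counted as apart: miR-351 as higher and miR-15b, miR-466e-3p, miR-466d-3p, miR-669f, miR-495 and miR-1 as lower.

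**Figure D3:**
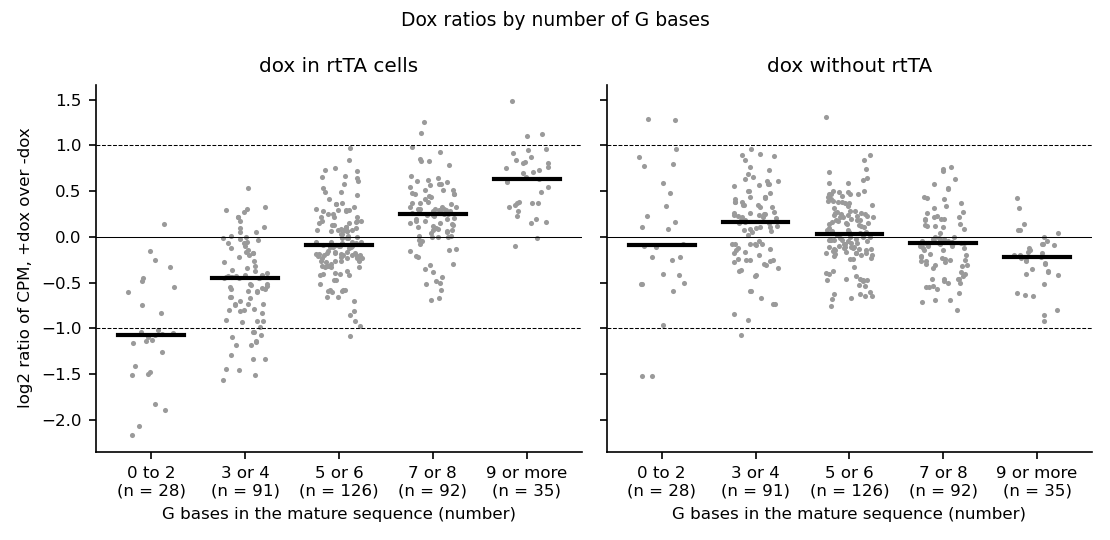
Log2 ratio of CPM, +dox over -dox, of the 372 microRNAs (points) by the number of G bases in the mature sequence, with rtTA on the left and without rtTA on the right; thick bars are medians and dashed lines mark 2-fold. With rtTA the medians climb from -1.07 for 0 to 2 G to 0.63 for 9 or more, and without rtTA they stay between -0.22 and 0.16.

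The same comparison can be made inside single hairpins, where both arms come from 1 precursor and the scaling cancels. Of 125 hairpins whose arms summed to 20 counts or more in each library, 5 (4.00%) had a rarer arm with odds raised by a factor of 2 or more with dox in rtTA cells, and 20 (16.0%) had it lowered as much. The median share of the rarer arm was 5.13% without dox and 4.44% with dox. The arms lay on opposite sides of 0 in 72 hairpins and on the same side in 53, and the dominant arm changed in 3. Of 120 hairpins whose arms differ in G content, the G-richer arm was relatively higher with dox in 96 with rtTA and in 57 without. In 19 of the 20 hairpins with lower odds the rarer arm held less G than its partner, and in 5 of the 5 with higher odds it held more. Over all 125 hairpins the rarer arm held less G in 71 (56.8%).

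Both arms of miR-299 and the partners of miR-674*, miR-382* and miR-323-5p are shown, because in these 4 hairpins a G-poor arm lay below 0 and its G-rich partner above.
miR-674: gCACTGAGatgggagtggtgta
miR-382: gAAGTTGTtcgtggtggattcg
miR-299*: tGGTTTACcgtcccacatacat
miR-299: tATGTGGGacggtaaaccgctt
miR-323-3p: cACATTACacggtcgacctct

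The miR-299 hairpin gave 3707 counts of miR-299* and 3303 of miR-299 without dox in rtTA cells, and 1399 and 4885 with dox. The share of miR-299* was thus 52.9% and 22.3%, against 47.9% and 40.8% without rtTA, a log2 odds ratio of -1.97 (-2.08 to -1.86) with rtTA. This was one of the hairpins whose dominant arm changed. The share of miR-674* was 1.87% and 0.379%, at -2.32 (-2.62 to -2.02), and its partner miR-674 stood at 2375 and 4166 CPM. Without rtTA miR-674* took 2.05% and 2.02%, so those libraries were level. The share of miR-382* was 10.7% and 2.72%, at -2.10 (-2.22 to -1.99).

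The share of miR-337-3p was 10.7% and 3.08%, that of miR-485* 26.0% and 9.68%, and that of miR-129-3p 49.0% and 23.7%. The log2 odds ratios of these 3 were -1.92, -1.71 and -1.63. In the opposite direction, miR-323-5p took 5.40% of its hairpin's counts without dox and 21.9% with dox, at 2.29 (1.92 to 2.66), while its partner miR-323-3p lay at -0.81. miR-30b* took 4.71% and 13.0%, at 1.59 (1.24 to 1.94). These were the only 2 of 108 hairpins with at least 200 counts that were counted as higher, against 19 counted as lower. miR-455 was the 1 hairpin with lower odds in which the rarer arm was not the poorer in G.

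**Figure D4:**
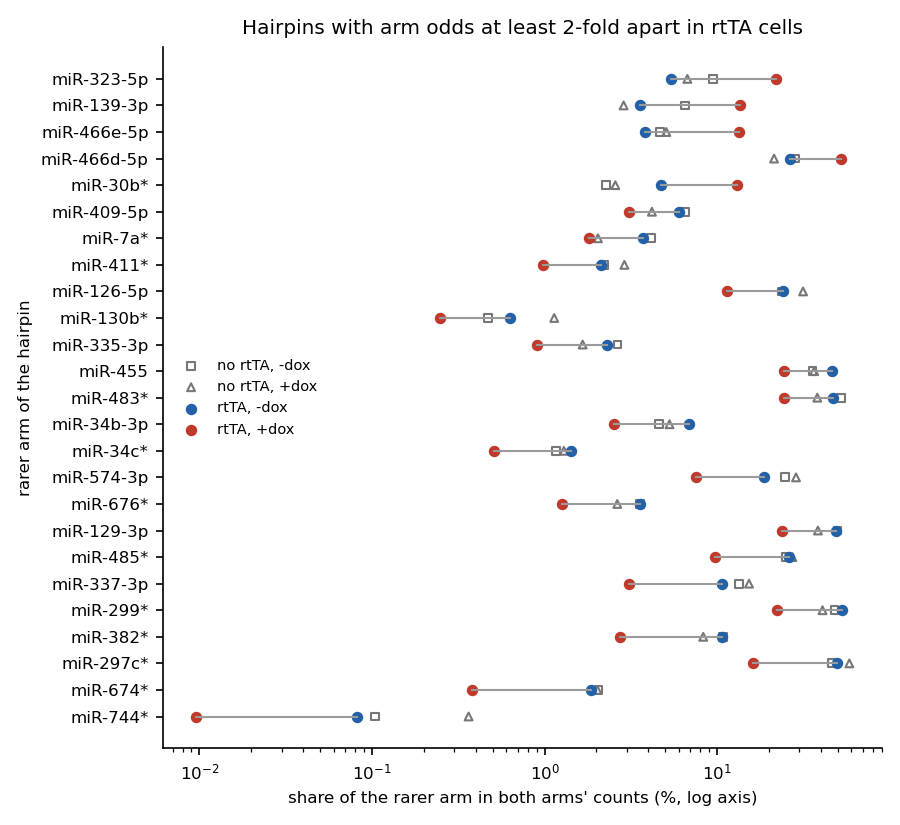
Share of the rarer arm in the summed counts of both arms (horizontal, percent, log axis) for the 25 hairpins whose arm odds lay at least 2-fold apart in rtTA cells; filled circles joined by a line are the rtTA libraries without and with dox, open symbols the libraries without rtTA. In 20 hairpins the induced library is to the left of its partner and in 5 to the right, and the shares of miR-299* are 52.9% and 22.3%.

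Members of 1 genomic cluster are usually cut from 1 transcript. In the Dlk1-Dio3 region on chromosome 12, maternally expressed noncoding transcripts carry many such hairpins, and 68 of their microRNAs passed the floor. Of these, 2 were higher and 6 lower, with a median of -0.05, close to the -0.06 of all microRNAs. The most abundant members, miR-379 (0.48), miR-541 (0.51), miR-376a (0.22) and miR-411 (0.42), lay above 0, as did miR-127 at 1879 and 3328 CPM (0.82). Other abundant members lay below 0, such as miR-300 (-0.23), miR-376c (-0.57) and miR-369-3p (-0.92). Of all 68, 32 lay above 0 and 36 below. The densest stretch, chr12:109709065-109743784, encodes 47 of them from 34 hairpins. Its log2 ratios spanned 3.0, from miR-495 at -1.51 to miR-323-5p at 1.48, against a span of 1.55 without rtTA. It was the only 1 of 27 clusters with calls in both directions. Over the 27 clusters the median span was 0.83 with rtTA and 0.64 without.

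The X-linked cluster of miR-322, miR-503, miR-351, miR-542 and miR-450 had 9 microRNAs past the floor, 1 higher and 0 lower, with a median of 0.09. miR-503 stood at 481 and 914 CPM (0.93) beside miR-322 at 0.09. The miR-17-92 cluster and its paralogue, which drive proliferation, held 12 microRNAs with 0 calls and a median of 0.11, or -0.21 with near-identical microRNAs left out. There miR-20a (0.33), miR-18a (0.27) and miR-17 (0.26) lay above 0 and miR-92a (-0.70) below. In the related cluster of miR-106b, miR-93 stood at 0.31 and miR-25 at -0.58. The miR-10, miR-196 and miR-615 genes of the Hox clusters held 8 microRNAs, 0 calls and a median of 0.53, with miR-10a at 0.66 and miR-10b at 0.58. For miR-10a and miR-10b dox without rtTA gave like values, 0.44 and 0.45.

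Lists tied to proliferation and arrest lay on either side of 0. miR-26, a family that restrains growth, held 3 microRNAs with 0 calls. Its median of -0.66 was the value of the rare passenger arm miR-26b* (37 and 20 counts), beside miR-26a at -0.33 and miR-26b at -0.92. Without rtTA miR-26a and miR-26b stood at 0.23 and 0.47. The p53-responsive miR-34 list held 5 microRNAs, of which 1 was lower, with a median of 0.11. With near-identical microRNAs left out this median was -0.92. miR-221 and miR-222, which repress cell cycle inhibitors, had a median of -0.20 and 0 calls. The miR-30 list held 10 microRNAs past the floor with 1 higher, 0 lower and a median of -0.02. That median turned to 0.01 with TMM or DESeq2 scaling and to 0.30 with near-identical microRNAs left out.

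Among the lists that mark fibroblasts, miR-199 and miR-214 held 5 microRNAs with 0 calls and a median of -0.06, and miR-143 and miR-145 held 3 with 0 calls and -0.36. miR-31 stood at 0.13 and its passenger arm miR-31* at -0.75. The miR-21 hairpin showed the reverse, miR-21 at -0.10 and miR-21* at 0.67, a list median of 0.29. The cartilage-linked miR-140 and miR-455 held 4 microRNAs with 0 calls and a median of 0.56. Hypoxia-induced miR-210 had 490 and 863 CPM (0.82), and inflammation-linked miR-155 stood at -0.13. Imprinted miR-483, from an Igf2 intron, stood at 0.87 and its partner arm miR-483* at -0.60, while miR-675-5p, from H19, stood at 0.84. The imprinted Igf2, H19 and Mest list held 6 microRNAs, 3 above 0 and 3 below, with a median of 0.08. With the G trend subtracted, miR-483 stood at -0.18 and miR-483* at 0.27.

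Some microRNAs bypass Drosha. Of the 5 such arms past the floor, 0 were counted as apart and their median was -0.15, or 0.19 at a floor of 100 counts. miR-320, the most abundant, had 19534 and 31624 counts in the rtTA libraries, a log2 ratio of 0.92 (0.89 to 0.95), with -0.28 without rtTA. miR-484 stood at -0.19, and the mirtron miR-877 at 0.19. The muscle list held 3 microRNAs, miR-206 at 0.71 and 1 lower, miR-1. The neuronal list held 9, of which miR-129-3p was lower, and the blood list 4 with 0 calls and a median of -0.50.

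**Figure D5:**
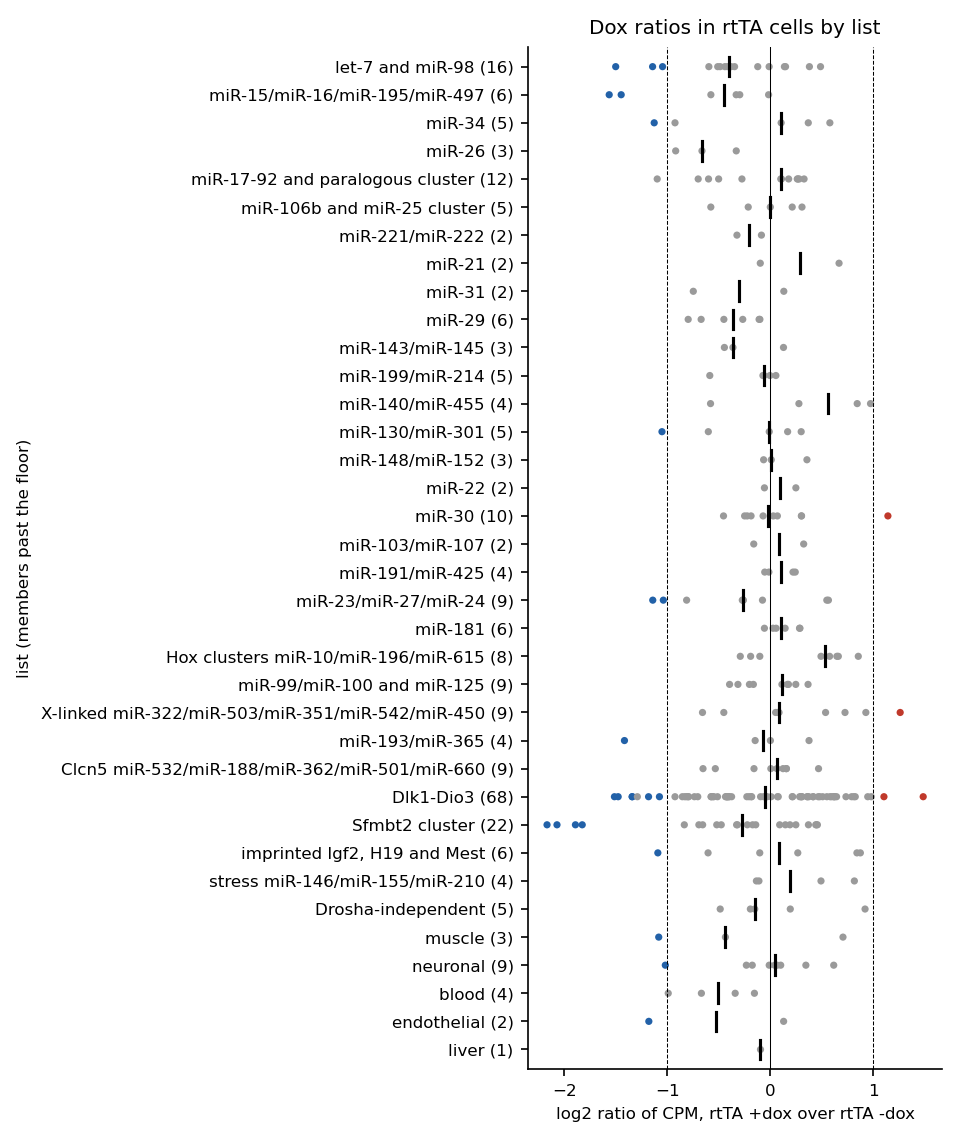
Log2 ratio of CPM with dox in rtTA cells for the members of each list past the floor (points, red if counted as higher, blue if counted as lower), with the list median as a black bar, the number of members in brackets, and 2-fold limits dashed. Most lists straddle 0. Those with every member below 0 include miR-29 (median -0.36), miR-26 (median -0.66) and miR-15/miR-16/miR-195/miR-497 (median -0.45), and the Dlk1-Dio3 list of 68 spans both limits.

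At the rare end, 21 microRNAs were listed with dox only and 20 without dox only in the rtTA libraries. The former had at most 2 counts, as for miR-200b, miR-295 and miR-693-3p, fewer than the 3 counts that a count of 0 allows. Of the latter, miR-449c had 10 counts, miR-669i 6 and miR-490 5 without dox. A count of 0 in the induced library allows up to 0.400 CPM.

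The dox ratios with and without rtTA share no library, and their difference was taken for each microRNA. The ratios had opposite signs for 213 of the 372. The difference was at least 2-fold with a counting interval off equality for 67 (18.0%), 21 higher (5.65%) and 46 lower (12.4%) with rtTA. Of the 37 microRNAs counted as apart in rtTA cells, 26 were among these 67. The ratio with rtTA is part of the difference, so being counted as apart makes this limit easier to pass. With the G trend subtracted from both ratios the count of 67 became 38.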

How the data were processed

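Small RNA libraries from MEFs of 4 groups, 1 library each, were grouped by the labels' titles. Each library's file, as deposited by the authors, holds whole-number counts of reads per microRNA, with 1 row for the luciferase shRNA. The aligner, mismatches allowed, treatment of reads that fit several microRNAs and database version are not given in the sources used. A microRNA that a file does not list was taken as 0. Counts were scaled to CPM of endogenous counts in Python 3.11.15 (pandas 2.3.3, numpy 2.4.6, scipy 1.17.1). Ratios carry exact conditional binomial (Clopper-Pearson) 95% intervals. With 1 library per group no test between conditions and no p-value was possible. Differences of ratios carry delta-method intervals, for which every count was raised by 0.5. Total counts of 6383594 to 8780954 mean that a count of 0 allows up to 0.342 to 0.470 CPM, by library.

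Lists were matched by hairpin name, both arms included. Near-identical means at most 2 mismatches to another listed microRNA (89 of the 372). The members, lists and tests were chosen with earlier results of these data known. The microRNAs named are the shRNA, the 10 most abundant, every higher one, the 15 lowest and other listed lower ones, the 8 largest CPM gains and losses, up to 4 abundant members and every called member of a list, up to 6 hairpins each way, up to 5 same-seed pairs, the 3 on each side of the limits and up to 3 listed in 1 library only. Those named beyond this rule (let-7b*, let-7e, miR-32, miR-127, miR-300, miR-369-3p, miR-376c, miR-1191 and the partner arms miR-299, miR-323-3p, miR-382 and miR-674) were chosen after their values were seen. Locations are from RefSeq (GRCm38.p6, 435 of 508 microRNAs matched) and host genes from GENCODE M21. Alternatives were TMM factors (edgeR 4.0.16, R 4.3.3), DESeq2 1.42.0 size factors, scaling without the 10 most abundant microRNAs, other floors, and leaving out star names or near-identical microRNAs, with a subtraction of the linear G trend. The code was tested on simulated data.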

Additional observations from a re-analysis of the deposited data

Results flagged for a closer look

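Of the 37 microRNAs counted as apart with dox in rtTA cells, 14 had a ratio of opposite direction with dox in cells without rtTA, with both counting intervals off equality and a difference of at least 2-fold. That is 37.8% of the 37. Over all 372 microRNAs compared, opposite ratios with both intervals off equality were nearly as frequent, at 125 or 33.6%, and 45 or 12.1% also differed by at least 2-fold, a limit that being counted as apart makes easier to pass. With 1 library per group, whether the effect differs between the genotypes was not tested against replicates, and each value below is the log2 ratio with rtTA minus the log2 ratio without rtTA.

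The 3 higher microRNAs among them were lower with dox where rtTA was lacking. The differences were 2.09 (1.57 to 2.61) for miR-323-5p, 1.54 (1.44 to 1.65) for miR-672 and 1.46 (1.32 to 1.60) for miR-370. The first rests on 88 to 225 counts per library.

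The other 11 were lower with dox in rtTA cells and higher with dox without it. miR-297c* had the widest gap, -3.10 (-4.28 to -1.92), on 9 to 80 counts per library. miR-365 followed at -2.37, miR-130b* at -2.29 on 19 to 62 counts, and the let-7c passenger arm let-7c-2* at -2.28. The endothelial arm miR-126-5p differed by -2.14 and miR-350 by -2.13. For miR-15b* the difference was -2.07, whereas its partner arm miR-15b was lower with dox in both genotypes. miR-374 and miR-32 differed by -1.88 and -1.83. The Dlk1-Dio3 members miR-337-3p and miR-329 had the smallest gaps, -1.49 and -1.30, their ratios without rtTA being 0.16 and 0.22. These 11 hold 0% to 19% G, below the median of 23.8% of all microRNAs compared. Low G is not particular to them, since all 32 lower microRNAs had a median of 9.09% (0% to 27.3%).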

How the results depend on the processing

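No paired analysis was possible because each group is 1 library and the labels carry no replicate numbers, so no library could be left out either. The ratio of the shRNA ran from 30.3 to 31.7 over 4 other scalings. The 5 higher and 32 lower microRNAs became 7 and 31 with TMM or DESeq2 factors, 5 and 31 without the 10 most abundant microRNAs, 6 and 38 at a floor of 5 counts, 6 and 40 with no floor and 5 and 25 without near-identical microRNAs. A floor of 100 counts gave 4 and 21 among 304 microRNAs, and leaving out star names 4 and 21 among 295, where fewer microRNAs were compared. With the linear trend on the percentage of G subtracted (0.43 on the log2 scale per 10 percentage points), 2 were higher and 7 lower, and the 67 differences between dox with and without rtTA became 38. Of the 37 microRNAs 7 were shared, and let-7b* and miR-877 were added. Under that subtraction 10 of 36 list medians and 37 of 156 named microRNAs changed sign. With TMM or DESeq2 factors 2 list medians (miR-130/miR-301 and miR-30) and 2 named microRNAs (miR-301b and miR-191*) did, all within 0.03 of 0. Without near-identical microRNAs 4 list medians changed sign (miR-34 from 0.11 to -0.92, miR-17-92 from 0.11 to -0.21, miR-30 from -0.02 to 0.30, miR-99/miR-100 and miR-125 from 0.11 to -0.16). Without star names 5 did (miR-21 from 0.29 to -0.10, miR-31 from -0.31 to 0.13, and miR-130/miR-301, Dlk1-Dio3 and Drosha-independent to between 0.0006 and 0.08). At a floor of 100 counts 3 did (muscle from -0.44 to 0.71, Drosha-independent from -0.15 to 0.19, miR-130/miR-301 to 0.08). These settings compare fewer members. Hairpins with shifted arm odds numbered 25, or 21 at 200 counts. Depth limits the microRNAs with few counts, such as miR-676*, miR-130b* and miR-1191, whose intervals reach close to equality.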

Other observations

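Of the lists of broadly expressed families, miR-23/miR-27/miR-24 held 2 lower members, and miR-181, miR-103/miR-107 and miR-191/miR-425 held none counted as apart. The miR-181 list had a median log2 ratio of 0.10 over 6 microRNAs, with miR-181a at 5110 and 6239 CPM (0.29) and miR-181b at 2760 and 3051 CPM (0.14). Without rtTA these 2 stood at -0.47 and -0.46. The miR-103/miR-107 list had a median of 0.08, with miR-103 at 10053 and 12585 CPM (0.32) and miR-107 at 1994 and 1784 CPM (-0.16). miR-191 and miR-425 stood at -0.05 and 0.22. In the miR-99/miR-100 and miR-125 list of 9 microRNAs, with 0 calls and a median of 0.11 (-0.16 without near-identical microRNAs), miR-100 stood at 0.11, miR-99b at -0.20 and miR-125a-5p at -0.39.

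In the miR-130/miR-301 list the guides share a seed, with miR-130a at 0.17, miR-130b at 0.30 and miR-301a at -0.60. The 1 lower member of 5 was the passenger arm miR-130b*, which lacks that seed. The 9 microRNAs of the Clcn5 host gene had a median of 0.06, with miR-188-5p at 0.47 and miR-500 at -0.16. Of the miR-148/miR-152 list, miR-152 had 223 and 285 CPM (0.36) and miR-148b 74.1 and 74.6 CPM (0.01). In the miR-193/miR-365 list, miR-193* and miR-193b stood at 0.38 and 0.0012, apart from miR-365 at -1.41. Imprinted miR-335, from a Mest intron, had its abundant arm miR-335-5p at 0.27 and its rarer arm miR-335-3p at -1.09.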
